A study of Schmidtea mediterranea with 24 samples.

Results

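The experiment is the time course of tail fragments: 18 of the 24 libraries of the series, chosen by their labels as all tails sampled 6, 12 or 24 h post amputation (hpa), with 9 libraries after *yki(RNAi)* and 9 after *control(RNAi)*. The 6 libraries of intact animals were not used. Asexual *Schmidtea mediterranea* of the clonal strain CIW4 were fed double-stranded RNA against *yki*, or against *gfp* for *control(RNAi)*, 3 times at intervals of 3 days. After 15 days in a high-salt medium, animals of both groups were irradiated with 60 Gy and amputated 24 h later. Each library holds RNA from 15 tails, and each group at each time has 3 biological replicates, A, B and C. *control(RNAi)* tails received the same irradiation, salt and amputation as *yki(RNAi)* tails, so all values describe fragments whose dividing stem cells had been targeted by irradiation. Time after irradiation and time after amputation rise together in these tails, always 24 h apart, so changes with either cannot be told apart.

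Yorkie (Yki) is the transcriptional co-activator at the end of the Hippo kinase cascade, which limits organ size in flies and vertebrates by keeping Yki out of the nucleus. In planarians, a wound switches on an early and then a late set of transcripts in epidermis, muscle and gut, and WNT signalling then decides whether a head or a tail is rebuilt. A tail fragment carries a wound that faces forward, where *notum*, a secreted enzyme that inactivates WNT proteins, is switched on. Irradiation removes the dividing stem cells, and the short-lived *prog* progenitors of the epidermis disappear in the days after it, because no new ones are made.

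The question was whether the change between 2 times differs between *yki(RNAi)* and *control(RNAi)* tails. For each transcript the change in *control(RNAi)* tails was subtracted from the change in *yki(RNAi)* tails on the log2 scale, so a positive difference means a larger rise or a smaller fall in *yki(RNAi)* tails. Levels are in CPM, counts per 1 M counts of a library total scaled by TMM, and are not corrected for transcript length. All tests are the quasi-likelihood F test of edgeR on 1 fit to the 18 libraries. Adjusted p-values are Benjamini-Hochberg values over 32438 tested transcripts, and those under 0.05 count as called. In RNA from whole fragments, fewer cells of a type and less RNA per cell cannot be told apart.

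The *yki* transcript was lower in all *yki(RNAi)* tails than in all *control(RNAi)* tails. It stood between 12.4 and 17.4 CPM over the 9 *yki(RNAi)* libraries and between 86.3 and 121 CPM over the 9 *control(RNAi)* libraries. Neither the 6 to 12 hpa nor the 12 to 24 hpa difference of *yki* passed the test (log2 0.10, SE 0.09, adjusted p = 0.78 and log2 -0.37, SE 0.09, adjusted p = 0.17). Any fed double-stranded RNA that was sequenced would count towards this transcript.

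The 18 libraries held 17.8 M to 23.6 M counts, with a median of 20.7 M. Among the 20315 transcripts with a mean of at least 1 CPM, the median SD of log2 CPM between replicates was 0.13, 0.11 and 0.12 in *yki(RNAi)* tails at 6, 12 and 24 hpa, and 0.15, 0.10 and 0.13 in *control(RNAi)* tails. The median SE of a difference between the groups' changes was then 0.18 on the log2 scale. Single libraries of both groups stood apart, and those given here are examples. In *control(RNAi)* tails, replicate C at 24 hpa had the lowest *hadrian*, at 94.0 CPM against 722 and 908 CPM in the other replicates. Replicate B at 6 hpa had the highest *Smedwi-1*, at 14.0 CPM against 3.58 and 4.74 CPM. On the axis of *yki(RNAi)* tails described below, *control(RNAi)* replicate C at 6 hpa stood at -0.16 against 0.11 and 0.11. In *yki(RNAi)* tails, replicate A at 24 hpa had 1141 CPM of *hadrian* against 368 and 481 CPM.

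Most transcripts that changed with time in one group were not called as changing differently in the other. A transcript that was not called is not shown to change alike in both groups. The median SE of a difference was 0.18 among transcripts of at least 1 CPM. For the 6 to 12 hpa change, 0 of 32438 transcripts were called in edgeR (background 0%). At an unadjusted p under 0.05 there were 2769 (8.54%), and DESeq2 on the same libraries called 2. For the 12 to 24 hpa change 5 transcripts were called (background 0.0154%), 3 with a positive and 2 with a negative difference, and 3751 (11.6%) had an unadjusted p under 0.05. DESeq2 called 77, among them all 5. Over the whole course, for the 6 to 24 hpa change, 3 transcripts were called (background 0.00925%), 1 positive and 2 negative, 1897 (5.85%) had an unadjusted p under 0.05, and DESeq2 called 13. Taking each of the 9 pairwise changes (3 libraries at the later time against 3 at the earlier) of a group, the *yki(RNAi)* and *control(RNAi)* changes did not overlap for 4.2% of transcripts at 6 to 12 hpa, 6.09% at 12 to 24 hpa and 2.06% at 6 to 24 hpa. The median difference over all transcripts was 0.00 for 6 to 12 hpa, -0.02 for 12 to 24 hpa and -0.01 for 6 to 24 hpa.

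The groups' own changes were far more numerous. Between 6 and 12 hpa, 1463 transcripts rose (4.51%) and 1395 fell (4.3%) in *yki(RNAi)* tails, 8.81% in all, and 1056 rose (3.26%) and 1484 fell (4.57%) in *control(RNAi)* tails, 7.83% in all. Between 12 and 24 hpa, 769 rose (2.37%) and 1192 fell (3.67%) in *yki(RNAi)* tails, 6.05% in all, and 2235 rose (6.89%) and 1992 fell (6.14%) in *control(RNAi)* tails, 13% in all. From 6 to 24 hpa, 24.8% of transcripts were called in *yki(RNAi)* tails, 11.8% rising and 13% falling, and 28.7% in *control(RNAi)* tails, 14.6% rising and 14.1% falling. The steps share the 12 hpa libraries, and whether the counts differ between the groups was not tested. The number of transcripts called between *yki(RNAi)* and *control(RNAi)* tails at the same time was 2559 (7.89%) for 6 hpa, 5677 (17.5%) for 12 hpa and 2208 (6.81%) for 24 hpa.

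*PHYHD1* (SmedASXL_004098), named after a human dioxygenase of the phytanoyl-CoA hydroxylase family and one of the wound genes of an earlier study, had the smallest adjusted p in the differences for 12 to 24 and for 6 to 24 hpa. In *yki(RNAi)* replicates A, B and C it stood at 9.61, 9.35 and 8.64 CPM at 6 hpa, at 5.93, 5.78 and 6.22 CPM at 12 hpa and at 10.9, 9.46 and 8.96 CPM at 24 hpa. In *control(RNAi)* replicates it stood at 23.2, 25.8 and 38.4 CPM, then at 21.6, 21.4 and 20.1 CPM, then at 9.45, 12.1 and 11.7 CPM. The groups did not overlap at 6 or at 12 hpa, with *yki(RNAi)* tails lower, and they overlapped at 24 hpa. Between 12 and 24 hpa it rose in *yki(RNAi)* tails (log2 0.71, SE 0.16, adjusted p = 0.0095) and fell in *control(RNAi)* tails (log2 -0.92, SE 0.14, adjusted p = 0.00033). The difference was 1.63 (SE 0.21, adjusted p = 0.0062), a 3.09-fold ratio of the fold changes. From 6 to 24 hpa the difference was 1.48 (SE 0.20, adjusted p = 0.019). The 12 to 24 hpa call was kept in all 18 fits that leave out 1 library, with adjusted p up to 0.035, and was lost when the 6 intact libraries were added to the fit (adjusted p = 0.098). The 6 to 24 hpa call was lost without *yki(RNAi)* 6 hpa replicate C or without *control(RNAi)* 24 hpa replicate A (highest adjusted p = 0.099). It was also lost with the 6 intact libraries in the fit, with only the 12 libraries of 6 and 24 hpa, and without *yki(RNAi)* 6 and 24 hpa replicate B together (adjusted p up to 0.39 over all alternatives).

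**Figure D1:**
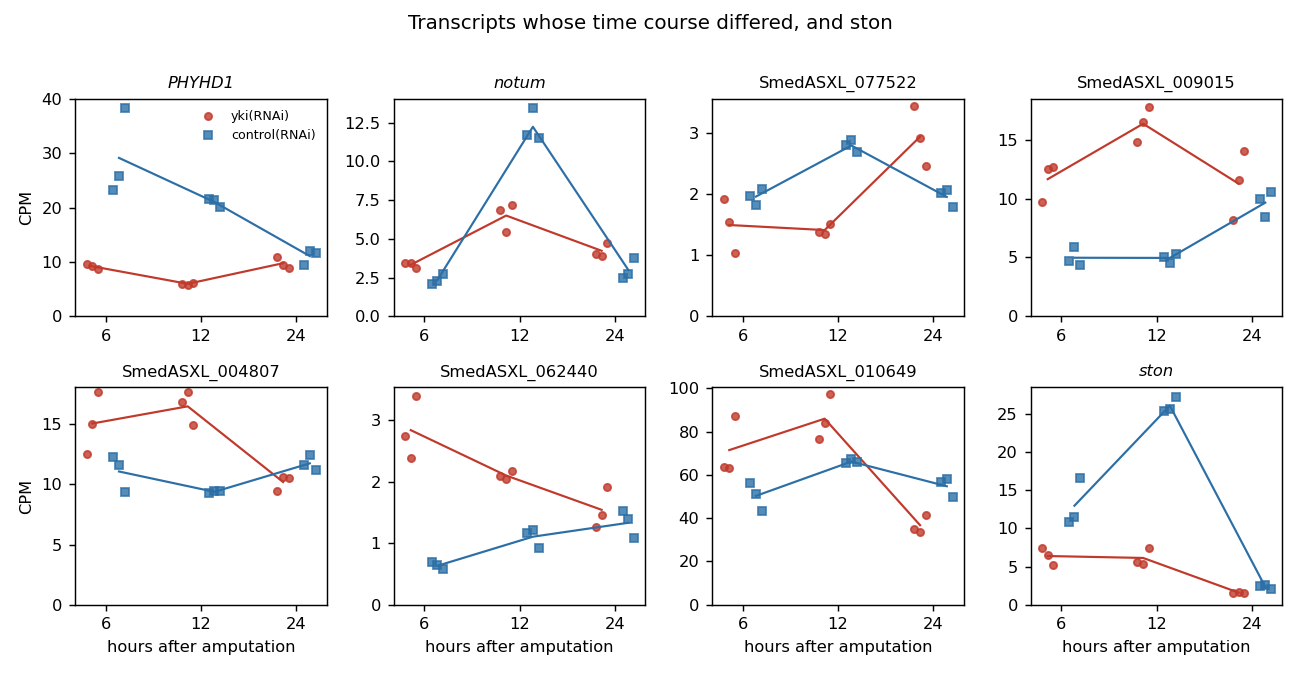
Levels in CPM (linear axes from 0) against hours after amputation for the 7 transcripts called in the 12 to 24 or 6 to 24 hpa difference, and for *ston*, which was not called; each point is 1 library (*yki(RNAi)* as circles, left, *control(RNAi)* as squares, right) and lines join the means of 3. *PHYHD1* lies at 5.78 to 6.22 CPM in 12 hpa *yki(RNAi)* tails, below the 20.1 to 21.6 CPM of *control(RNAi)* tails, and *notum* peaks at 12 hpa in both groups, at up to 7.21 CPM and 13.5 CPM.

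*notum* (SmedASXL_009180) peaked at 12 hpa in both groups, and the peak was lower in *yki(RNAi)* tails. Its level was 3.46, 3.41 and 3.09 CPM in 6 hpa *yki(RNAi)* tails, 6.89, 5.41 and 7.21 CPM at 12 hpa, and 4.04, 3.92 and 4.73 CPM at 24 hpa. *control(RNAi)* tails had 2.06, 2.28 and 2.71 CPM at 6 hpa, 11.7, 13.5 and 11.5 CPM at 12 hpa, and 2.50, 2.73 and 3.76 CPM at 24 hpa. The groups did not overlap at any of the 3 times: *yki(RNAi)* tails were higher at 6 and 24 hpa and lower at 12 hpa. Between 6 and 12 hpa *notum* rose by 0.97 (SE 0.15) on the log2 scale in *yki(RNAi)* tails and by 2.38 (SE 0.15) in *control(RNAi)* tails (adjusted p = 0.0011 and 1.24e-08). It then fell by 0.62 (SE 0.15) in *yki(RNAi)* tails and by 2.02 (SE 0.15) in *control(RNAi)* tails (adjusted p = 0.016 and 3.69e-08).

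The difference in the 12 to 24 hpa change of *notum* was 1.40 (SE 0.21, adjusted p = 0.025). That in the 6 to 12 hpa change was -1.41 (SE 0.22) and missed the threshold in edgeR (adjusted p = 0.090, the smallest of that comparison), while DESeq2 called it (adjusted p = 0.0085). Both differences rest on the same 12 hpa libraries. A single contrast of the *yki(RNAi)* effect at 12 hpa against its mean at 6 and 24 hpa called *notum* alone among the 32438 transcripts (background 0.00308%), at -1.41 with adjusted p = 0.0057, while 3658 (11.3%) had an unadjusted p under 0.05 and DESeq2 called 59. From 6 to 24 hpa the difference was -0.01 (SE 0.23). The joint test of both steps called *PHYHD1* (adjusted p = 0.0063) and *notum* (adjusted p = 0.014), 2 transcripts in all (background 0.00617%), while 3215 (9.91%) had an unadjusted p under 0.05 and DESeq2 called 69. The 12 to 24 hpa call of *notum* was kept in 11 of the 18 fits without 1 library. It was lost without any one of the *control(RNAi)* 12 hpa replicates A, B and C, *yki(RNAi)* 12 hpa replicate B, *control(RNAi)* 24 hpa replicates A and B and *yki(RNAi)* 24 hpa replicate B, with adjusted p from 0.052 to 0.16. It was also lost without *yki(RNAi)* 6 and 24 hpa replicate B together, and with the 6 intact libraries in the fit. In the fit with the intact libraries the joint test called 0 transcripts, and the contrast of 12 hpa with the mean of 6 and 24 hpa called *ston* (adjusted p = 0.034) but not *notum* (-1.42, SE 0.24, adjusted p = 0.054).

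The other 3 calls of the 12 to 24 hpa difference are transcripts that the files do not pair with a name. SmedASXL_009015 fell between 12 and 24 hpa in *yki(RNAi)* tails (log2 -0.53, SE 0.15) and rose in *control(RNAi)* tails (log2 0.96, SE 0.17), a difference of -1.49 (SE 0.23, adjusted p = 0.025). At 12 hpa it stood at 14.8, 16.5 and 17.8 CPM in *yki(RNAi)* tails and at 5.05, 4.49 and 5.33 CPM in *control(RNAi)* tails, and at 24 hpa at 8.18, 11.6 and 14.1 CPM in *yki(RNAi)* tails and at 8.44 to 10.5 CPM in *control(RNAi)* tails. The separation at 12 hpa thus gave way to overlap at 24 hpa. SmedASXL_004807 showed a difference of -1.02 (SE 0.16, adjusted p = 0.036), with 16.8, 17.6 and 14.9 CPM in 12 hpa *yki(RNAi)* tails and 9.44, 10.6 and 10.5 CPM at 24 hpa. In *control(RNAi)* tails it had 9.26, 9.43 and 9.43 CPM at 12 hpa and 11.6, 12.4 and 11.2 CPM at 24 hpa, and that change did not pass the test (adjusted p = 0.074). SmedASXL_077522, a transcript of 1.03 to 3.44 CPM, showed a difference of 1.57 (SE 0.26, adjusted p = 0.047). It rose in *yki(RNAi)* tails (log2 1.05, SE 0.19, adjusted p = 0.0019) and stood at log2 -0.52 (SE 0.18, adjusted p = 0.067) in *control(RNAi)* tails. Without 1 library, SmedASXL_009015 was kept in 11 of 18 fits and the other transcripts in 6 each.

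The number of transcripts called for 12 to 24 hpa moved when 1 library was left out, which also changed the number tested, to between 34114 and 34313. The count was 38 without *control(RNAi)* 24 hpa replicate C, 27 without *yki(RNAi)* 12 hpa replicate A, 23 without *control(RNAi)* 6 hpa replicate C and 11 without *yki(RNAi)* 24 hpa replicate C. It was 1 without any one of *control(RNAi)* 12 hpa replicates A, B and C, *yki(RNAi)* 12 hpa replicate B, *control(RNAi)* 24 hpa replicate A and *yki(RNAi)* 24 hpa replicate B, 2 without *control(RNAi)* 24 hpa replicate B and 3 without *control(RNAi)* 6 hpa replicate A or B.

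From 6 to 24 hpa, the called transcripts besides *PHYHD1* had negative differences and again carry no name in the files. SmedASXL_010649 fell in *yki(RNAi)* tails (log2 -0.96, SE 0.12, adjusted p = 1.22e-05) and stood at 0.12 (SE 0.12, adjusted p = 0.49) in *control(RNAi)* tails. Its levels in *yki(RNAi)* tails were 63.8, 63.2 and 87.4 CPM at 6 hpa and 35.1, 33.6 and 41.6 CPM at 24 hpa, and in *control(RNAi)* tails 56.4, 51.1 and 43.5 CPM and then 56.7, 58.0 and 49.6 CPM. The difference was -1.08 (SE 0.17, adjusted p = 0.043). SmedASXL_062440 had 2.74, 2.37 and 3.39 CPM at 6 hpa in *yki(RNAi)* tails, where its highest replicates at 24 hpa had 1.46 and 1.91 CPM. In *control(RNAi)* tails it had 0.687, 0.639 and 0.573 CPM at 6 hpa and 1.52, 1.39 and 1.08 CPM at 24 hpa, so groups that were apart at 6 hpa overlapped at 24 hpa. The difference was -1.92 (SE 0.31, adjusted p = 0.043). Without 1 library, the call was kept in 6 of 18 fits for SmedASXL_010649 and in 3 of 18 for SmedASXL_062440. Both calls were lost when the replicate letter was added to the fit as a block. They were also lost with only the 12 libraries of 6 and 24 hpa and without *yki(RNAi)* 6 and 24 hpa replicate B together. That of SmedASXL_010649 was lost with the intact libraries in the fit as well (adjusted p up to 0.43 for either transcript over all alternatives).

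WNT ligands set the posterior end of a planarian. None of the 8 tested was called in any of the 3 differences (DESeq2 also called none of them), and the list's median difference was -0.02 for 6 to 12 hpa and 0.26 for 12 to 24 hpa, beside 0.00 and -0.02 over all transcripts. *wnt1*, which is switched on at every wound and marks the tail pole, at 6 hpa stood at 5.11, 4.80 and 4.81 CPM in *yki(RNAi)* tails and 2.90, 3.33 and 2.34 CPM in *control(RNAi)* tails. At 24 hpa it had 1.64, 1.51 and 2.27 CPM in *yki(RNAi)* tails and 1.68, 1.75 and 1.27 CPM in *control(RNAi)* tails. It was apart at 6 hpa and overlapped at 24 hpa, but the difference in its 6 to 24 hpa change was -0.56 (SE 0.25, adjusted p = 0.83). For 6 to 12 hpa the differences of the 8 ligands ran from -0.52, that of *wnt1*, to 0.26, and the smallest adjusted p of the list was 0.55. Between 12 and 24 hpa *wnt1* fell in both groups (log2 -1.07, SE 0.17 in *yki(RNAi)* tails and log2 -1.03, SE 0.18 in *control(RNAi)* tails), with a difference of -0.04 (SE 0.26).

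Of the 13 tested WNT receptors, antagonists and inner pathway genes, *notum* was the 1 called. *sfrp2*, whose protein binds WNTs outside the cell, had 12.0, 10.9 and 12.0 CPM in 6 hpa *yki(RNAi)* tails and 9.87, 10.7 and 10.4 CPM at 24 hpa. Its *control(RNAi)* levels were 6.97, 9.35 and 8.54 CPM at 6 hpa, and 24 hpa levels were 3.91, 4.07 and 5.26 CPM, so the groups were apart at both times. *sfrp2* fell over the course in *control(RNAi)* tails (log2 -0.90, SE 0.12, adjusted p = 1.74e-05), and the difference of 0.73 (SE 0.16) was not called (adjusted p = 0.49). The WNT receptor *Fzd-4-2* and *Evi/Wls*, which WNT proteins need for secretion, had 12 to 24 hpa differences of 0.54 (SE 0.15, adjusted p = 0.19) and 0.20 (SE 0.10, adjusted p = 0.47).

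The Hox and Post genes, which are expressed towards the tail, were read for whether their gap between the groups moved. Of 4 tested members, 0 were called in the 3 differences. Their median difference was -0.11 for 6 to 12 hpa and 0.52 for 12 to 24 hpa, beside 0.00 and -0.02 over all transcripts. All 4 were positive at the second step. *Post-2C* and *Hox4b* also belong to lists that the study chose on these samples, so these signs are a description and not independent evidence. At 12 hpa *Post-2C* had 17.8, 14.5 and 15.6 CPM in *yki(RNAi)* tails and 14.0, 12.5 and 13.2 CPM in *control(RNAi)* tails. At 24 hpa it had 19.1, 18.0 and 15.6 CPM in *yki(RNAi)* tails and 9.67, 9.83 and 9.25 CPM in *control(RNAi)* tails, without overlap at either time. It fell between 12 and 24 hpa in *control(RNAi)* tails (log2 -0.47, SE 0.11, adjusted p = 0.012), and the differences of -0.62 (SE 0.16) for 6 to 12 hpa and 0.60 (SE 0.16) for 12 to 24 hpa had adjusted p = 0.37 and 0.19. The *yki(RNAi)* effect on *Post-2C* at 12 hpa against its mean at 6 and 24 hpa was -0.61. DESeq2 called it (adjusted p = 0.037) and edgeR did not (adjusted p = 0.13). *Hox4b* had a 12 to 24 hpa difference of 0.62 (SE 0.15, adjusted p = 0.19). *Post-2d* kept a steady gap, at 34.0 to 46.0 CPM over the *yki(RNAi)* libraries against 19.3 to 26.4 CPM over the *control(RNAi)* libraries, with differences of -0.03 (SE 0.13) and 0.08 (SE 0.13).

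**Figure D2:**
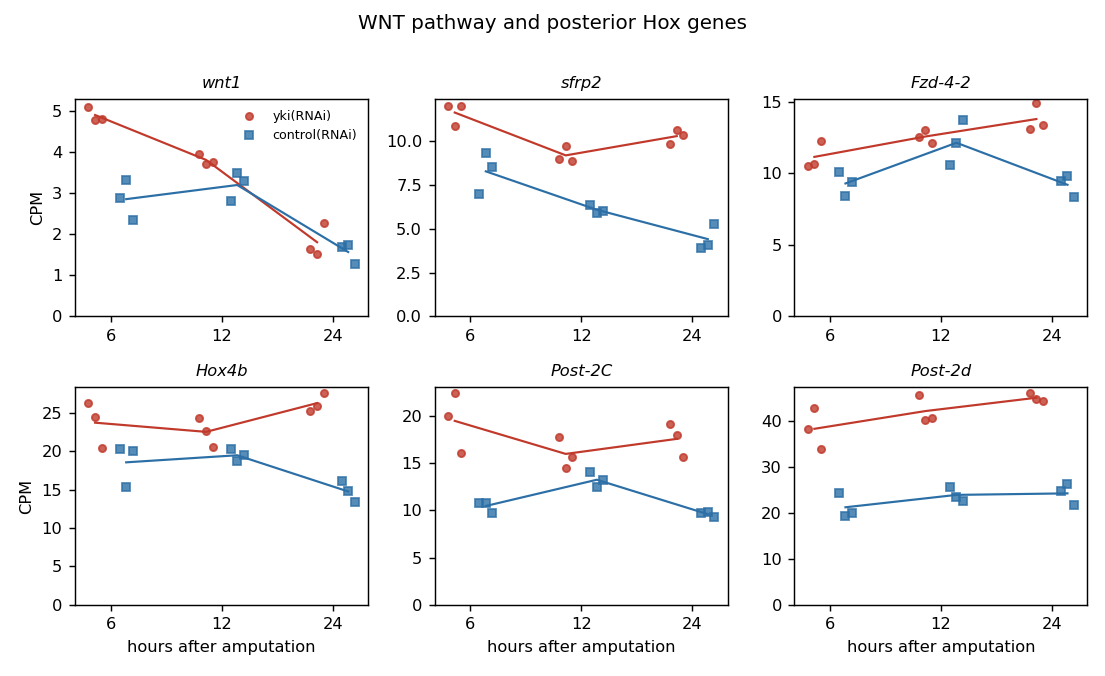
Levels in CPM (linear axes from 0) of 6 WNT pathway and Hox genes against hours after amputation, 1 point per library (*yki(RNAi)* as circles, left, *control(RNAi)* as squares, right) with lines through the means of 3. *Post-2d* stays at 34.0 to 46.0 CPM in *yki(RNAi)* tails, above the 19.3 to 26.4 CPM of *control(RNAi)* tails, while *wnt1* is apart at 6 hpa and overlaps at 24 hpa.

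Of the patterning genes that the study singled out, a list chosen on these samples, 15 have a matching name in the count table and the others were not analysed here. The 15 held 1 call, *notum*, and 13 of 15 had a positive 12 to 24 hpa difference (median 0.31, beside -0.02 over all transcripts). Since the list was chosen on these samples, this is a description and not independent evidence. Between 12 and 24 hpa, 3 of the 15 fell and 1 rose in *yki(RNAi)* tails, and 9 fell and 0 rose in *control(RNAi)* tails. Over all transcripts 3.67% fell and 2.37% rose in *yki(RNAi)* tails, and 6.14% fell and 6.89% rose in *control(RNAi)* tails. The summed level of the list at 24 hpa was 413, 420 and 412 CPM in *yki(RNAi)* tails and 308, 292 and 283 CPM in *control(RNAi)* tails. At 12 hpa it was 426, 411 and 411 CPM in *yki(RNAi)* tails and 367, 367 and 360 CPM in *control(RNAi)* tails. *Sp5*, a transcription factor that acts downstream of WNT signals, fell between 12 and 24 hpa in *control(RNAi)* tails (log2 -0.54, SE 0.12, adjusted p = 0.0051) and its difference was 0.43 (SE 0.16, adjusted p = 0.31).

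Genes induced by wounding were read in 4 lists. Of the 97 wound genes of an earlier study, 94 were tested and 2 were called as positive in the 12 to 24 hpa difference by edgeR, *PHYHD1* and *notum*. DESeq2 called 3 as positive and 2 as negative in that difference. The median differences of the list were 0.00 for 6 to 12 hpa and 0.01 for 12 to 24 hpa. The transcripts that the study itself found wound-induced, chosen on libraries that include the *control(RNAi)* tails used here, had 1 call by edgeR, *notum*. DESeq2 called 11 of them as positive and 5 as negative for 12 to 24 hpa, beside 28 and 49 over all transcripts. In that list 302 were negative and 136 positive for 6 to 12 hpa (median -0.24), and 140 were negative and 298 positive for 12 to 24 hpa (median 0.25), beside all-transcript medians of 0.00 and -0.02. Since the list was selected for rises in *control(RNAi)* tails, these signs are a description and not independent evidence.

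*ston*, placed in the epidermis by the earlier study, missed the threshold in edgeR. Its levels in *yki(RNAi)* tails were 7.44, 6.48 and 5.26 CPM at 6 hpa, 5.56, 5.37 and 7.49 CPM at 12 hpa and at most 1.71 CPM at 24 hpa. *control(RNAi)* tails had 10.9, 11.5 and 16.6 CPM, then 25.4, 25.6 and 27.2 CPM, then 2.45, 2.57 and 2.02 CPM. *yki(RNAi)* tails were lower than *control(RNAi)* tails at every time, without overlap. Its 6 to 12 hpa change was log2 -0.06 (SE 0.16, adjusted p = 0.86) in *yki(RNAi)* tails, and it rose in *control(RNAi)* tails (log2 1.01, SE 0.14, adjusted p = 0.00029). The differences were -1.07 (SE 0.21, adjusted p = 0.37) for 6 to 12 hpa and 1.54 (SE 0.28, adjusted p = 0.071) for 12 to 24 hpa. DESeq2 called the second (adjusted p = 0.00033).

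*hadrian*, also placed in the epidermis, rose between 12 and 24 hpa in both groups, by 3.69 (SE 0.56) on the log2 scale in *yki(RNAi)* tails and by 2.77 (SE 0.54) in *control(RNAi)* tails. At 6 hpa it was lower in *yki(RNAi)* tails, at 25.0, 18.0 and 25.8 CPM against 79.5, 142 and 56.0 CPM (log2 -2.01, SE 0.55, adjusted p = 0.026). At 12 hpa the levels were 44.6, 46.3 and 63.7 CPM against 81.8, 93.3 and 78.1 CPM, without overlap but not called (adjusted p = 0.38). At 24 hpa it stood at 1141, 368 and 481 CPM in *yki(RNAi)* tails and at 722, 908 and 94.0 CPM in *control(RNAi)* tails, which overlap. The 12 to 24 hpa difference was 0.92 (SE 0.72, adjusted p = 0.67), and the 6 to 24 hpa difference was 2.22 (SE 0.74, adjusted p = 0.80). *PANK4*, of the pantothenate kinase family, fell between 6 and 24 hpa in both groups, by 0.72 (SE 0.12) in *yki(RNAi)* tails and by 1.68 (SE 0.12) in *control(RNAi)* tails on the log2 scale, with a difference of 0.96 (SE 0.18, adjusted p = 0.19 in edgeR) that DESeq2 called (adjusted p = 0.0014). The 14 muscle members of the wound genes had median differences of -0.18 and 0.13 for the 2 steps, and 0 were called. *fos-1* and *jun-1*, early response factors whose proteins pair to form AP-1, had 6 to 12 hpa differences of 0.23 (SE 0.11, adjusted p = 0.57) and 0.01 (SE 0.15, adjusted p = 1.00). The gene *DLL4*, a Delta-type ligand of Notch, had a 6 to 12 hpa difference of -0.40 (SE 0.12, adjusted p = 0.42).

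Among the wound-induced genes that the study added, those it marked as not enriched in tails form a list chosen on these samples. The study took genes that were higher in *yki(RNAi)* tails at any time. Their counts and signs here are therefore a description and not independent evidence. None of the 14 members was called in the 3 differences by edgeR, while DESeq2 called 4 for 12 to 24 hpa, all negative. An unadjusted p under 0.05 was found for 7 of the 14 for 6 to 12 hpa (8.54% of all transcripts) and for 8 for 12 to 24 hpa (11.6% of all). Of the 14, 13 had a positive 6 to 12 hpa difference (median 0.59) and 12 a negative 12 to 24 hpa difference (median -0.88). Within *yki(RNAi)* tails 8 rose between 6 and 12 hpa and 4 between 12 and 24 hpa. Within *control(RNAi)* tails 2 rose between 6 and 12 hpa and 11 between 12 and 24 hpa. The share of all transcripts that rose was 4.51% and 2.37% for the 2 steps in *yki(RNAi)* tails, and 3.26% and 6.89% in *control(RNAi)* tails. Their 6 to 24 hpa differences had a median of 0.01, with 7 positive and 7 negative, and all 14 rose over the whole course in *yki(RNAi)* tails and 13 in *control(RNAi)* tails.

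*collagen-alpha-5*, a collagen chain of the kind planarian muscle makes, is one of them. In *yki(RNAi)* tails it had 3.62, 2.87 and 3.83 CPM at 6 hpa, 5.22, 6.11 and 6.12 CPM at 12 hpa and 8.51, 9.36 and 8.55 CPM at 24 hpa. In *control(RNAi)* tails it had 2.41, 3.38 and 2.55 CPM, then 2.90, 3.38 and 3.66 CPM, then 9.13, 10.8 and 12.2 CPM. The groups overlapped at 6 hpa, were apart at 12 hpa with *yki(RNAi)* tails higher, and overlapped at 24 hpa. It rose between 6 and 12 hpa in *yki(RNAi)* tails (log2 0.76, SE 0.15, adjusted p = 0.0047) and between 12 and 24 hpa in both groups, by 0.60 (SE 0.14) in *yki(RNAi)* tails and by 1.69 (SE 0.15) in *control(RNAi)* tails. The 12 to 24 hpa difference was -1.09 (SE 0.20, adjusted p = 0.074), and DESeq2 called it (adjusted p = 0.0053).

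SmedASXL_061347, also of this list, had 7.35, 7.77 and 10.3 CPM in 12 hpa *yki(RNAi)* tails against 4.35, 4.44 and 4.89 CPM in *control(RNAi)* tails. At 24 hpa it had 6.87, 8.90 and 7.14 CPM in *yki(RNAi)* tails and 9.24, 10.5 and 6.86 CPM in *control(RNAi)* tails. Its 12 to 24 hpa difference was -1.10 (SE 0.23, adjusted p = 0.13), and DESeq2 called it (adjusted p = 0.014). For *CC122* and *RAD50*, members whose names are those of a coiled-coil protein and of a subunit of a DNA break repair complex, *control(RNAi)* replicate C at 24 hpa stood apart again. *RAD50* had 89.2, 49.5 and 41.9 CPM in 24 hpa *yki(RNAi)* tails, against 48.8, 74.8 and 22.6 CPM in *control(RNAi)* tails, and *CC122* had 49.9, 30.5 and 33.6 CPM against 33.4, 39.9 and 8.92 CPM.

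The 18 wound-induced genes marked as tail-enriched were likewise chosen on these samples, so their counts and signs are a description and not independent evidence. They had 0 calls by edgeR. Of these, 15 were negative for 6 to 12 hpa (median -0.14) and 15 positive for 12 to 24 hpa (median 0.32), with 5 and 8 at an unadjusted p under 0.05 (8.54% and 11.6% of all transcripts). Their summed level stood at 1177 to 1403 CPM over all *yki(RNAi)* tails and at 695 to 942 CPM over all *control(RNAi)* tails. *beta-catenin-like*, related to the protein that carries the WNT signal to the nucleus, rose between 12 and 24 hpa in *yki(RNAi)* tails (log2 0.40, SE 0.10, adjusted p = 0.021) and between 6 and 12 hpa in *control(RNAi)* tails (log2 0.53, SE 0.11, adjusted p = 0.0072). Its differences of -0.29 (SE 0.15) and 0.32 (SE 0.15) were not called (adjusted p = 0.62 and 0.42).

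**Figure D3:**
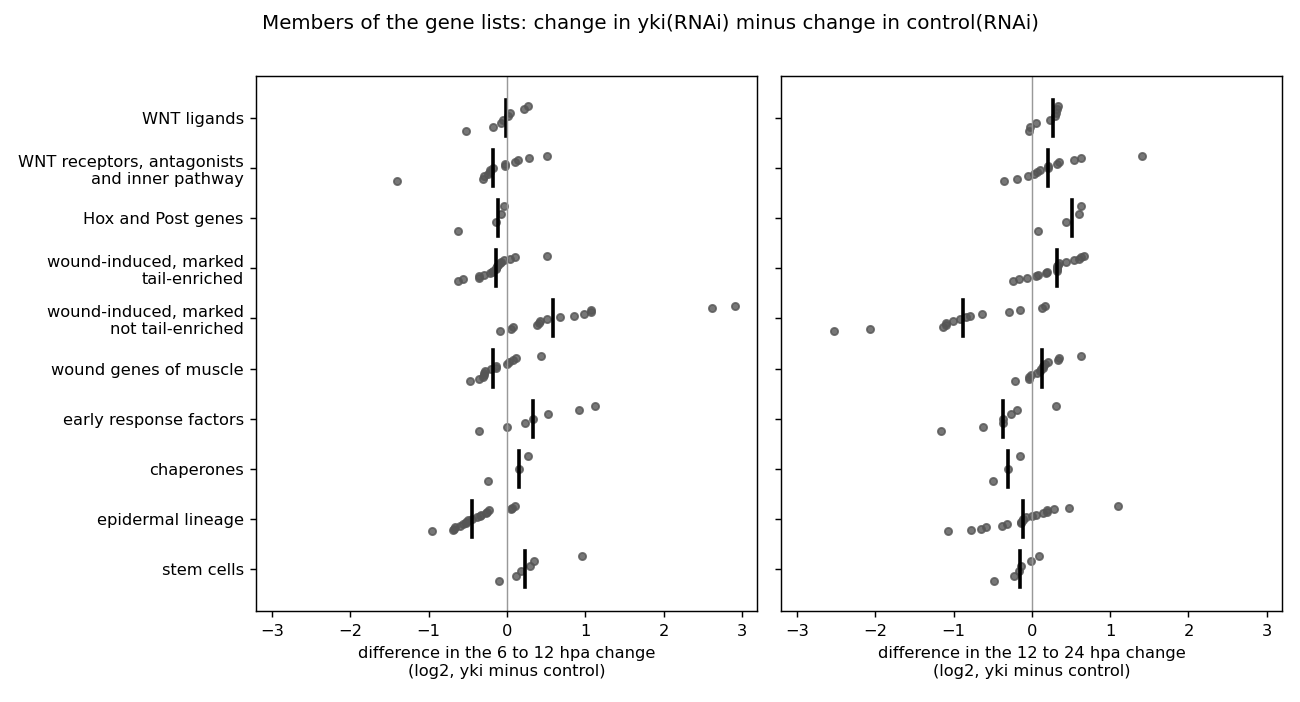
Differences in the 6 to 12 hpa change (left) and the 12 to 24 hpa change (right), *yki(RNAi)* minus *control(RNAi)* on the log2 scale, with 1 grey point per tested member of each gene list and a black bar at the list's median. The genes marked not tail-enriched have medians of 0.59 and -0.88 and the epidermal lineage transcripts -0.44 and -0.11; of the lists drawn, all but that of the WNT receptors, antagonists and inner pathway, which holds *notum*, have 0 called members.

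Most transcripts of the epidermal lineage fell in both groups. Of 19 tested, all but *vim-1* being *prog* transcripts, 13 fell between 6 and 12 hpa in *yki(RNAi)* tails and 12 fell and 1 rose in *control(RNAi)* tails. Between 12 and 24 hpa, 11 fell in *yki(RNAi)* tails and 13 in *control(RNAi)* tails. Over all transcripts, falls at the first step made up 4.3% in *yki(RNAi)* tails and 4.57% in *control(RNAi)* tails, and at the second step 3.67% and 6.14%. None of the 19 was called in the 3 differences by edgeR, while 11 had an unadjusted p under 0.05 for 6 to 12 hpa, all 11 negative (8.54% of all transcripts, in either direction). The median difference was -0.44 for 6 to 12 hpa, with 16 of 19 negative, -0.11 for 12 to 24 hpa and -0.39 for 6 to 24 hpa. Over all transcripts these medians were 0.00, -0.02 and -0.01. At 6 hpa the summed level of the list was 3078 to 3365 CPM in *yki(RNAi)* tails and 3493 to 3810 CPM in *control(RNAi)* tails. At 12 hpa it was 1773 to 1831 CPM against 2299 to 2565 CPM, so the summed levels did not overlap at any time. At 24 hpa it was 1350 to 1386 CPM against 1548 to 1664 CPM.

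*prog-1*, a classical marker of the early epidermal progenitors, had 57.7, 64.6 and 51.1 CPM in 6 hpa *yki(RNAi)* tails, 9.19, 9.99 and 8.62 CPM at 12 hpa and 0.600, 0.453 and 0.409 CPM at 24 hpa. In *control(RNAi)* tails it had 62.4, 80.6 and 76.4 CPM, then 22.5, 17.2 and 16.9 CPM, then 0.761, 0.515 and 1.27 CPM. The groups overlapped at 6 hpa and were apart at 12 hpa, with *yki(RNAi)* tails lower. The change between 6 and 12 hpa was -2.64 (SE 0.13) in *yki(RNAi)* tails and -1.95 (SE 0.13) in *control(RNAi)* tails on the log2 scale, a difference of -0.69 (SE 0.18, adjusted p = 0.39).

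Transcripts of the *prog-2* family had the smallest joint p-values of the list, though none was called. At 6 hpa *prog2d* had 175, 228 and 214 CPM in *yki(RNAi)* tails and 196, 212 and 198 CPM in *control(RNAi)* tails, and 4.36, 4.48 and 4.23 CPM against 12.9, 6.69 and 12.0 CPM at 24 hpa. Overlapping groups at 6 hpa were thus apart at 24 hpa. The 6 to 24 hpa change was -5.56 (SE 0.19) in *yki(RNAi)* tails and -4.26 (SE 0.17) in *control(RNAi)* tails, and the difference was -1.30 (SE 0.25, adjusted p = 0.24 in edgeR and 0.013 in DESeq2). *prog2c* had a difference of -1.46 (SE 0.29, adjusted p = 0.27 in edgeR and 0.040 in DESeq2), and *prog-2* one of -1.21 (SE 0.27, adjusted p = 0.49). The *prog* transcripts form families of related sequence, and how reads that match several members were assigned is not given in the sources used here, so values of single members are uncertain.

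**Figure D4:**
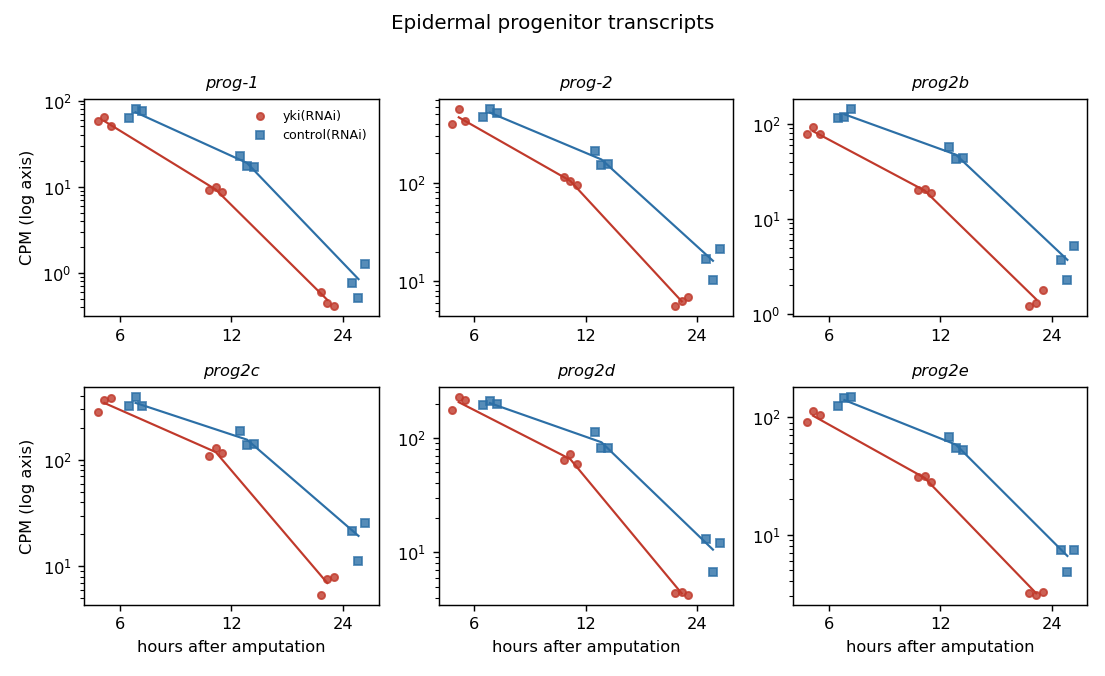
Levels in CPM (log axes) of 6 epidermal progenitor transcripts against hours after amputation, 1 point per library (*yki(RNAi)* as circles, left, *control(RNAi)* as squares, right) with lines through the means of 3. At 12 hpa *prog-1* lies at 8.62 to 9.99 CPM in *yki(RNAi)* tails and at 16.9 to 22.5 CPM in *control(RNAi)* tails, and at 24 hpa *prog2d* lies at 4.23 to 4.48 CPM against 6.69 to 12.9 CPM.

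Of 6 tested stem cell transcripts, 5 fell in *yki(RNAi)* tails and 6 in *control(RNAi)* tails between 6 and 24 hpa, beside 13% and 14.1% of all transcripts. *Smedwi-1*, the PIWI gene used to mark planarian stem cells, stood at 1.86 to 4.80 CPM in *yki(RNAi)* tails and at 2.67 to 14.0 CPM in *control(RNAi)* tails, and its 6 to 12 hpa difference of 0.96 (SE 0.47, adjusted p = 0.60) includes the *control(RNAi)* replicate of 14.0 CPM. None was called in the differences by edgeR or DESeq2, 0 had an unadjusted p under 0.05, and the medians were 0.23 and -0.15 for the 2 steps. *Smedwi-2*, another PIWI gene, had 317, 321 and 317 CPM in 6 hpa *yki(RNAi)* tails and 217, 223 and 227 CPM at 24 hpa. *control(RNAi)* tails had 286, 275 and 302 CPM at 6 hpa and 215, 218 and 218 CPM at 24 hpa, so the groups were apart at 6 hpa and overlapped at 24 hpa, and the 6 to 24 hpa difference was -0.11 (SE 0.07, adjusted p = 0.91).

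Chaperones fell in both groups, and none of the 3 was called in the differences by either tool except *HSPA4L*, which DESeq2 called for 12 to 24 hpa. At 12 hpa *HSPA5*, the chaperone of the endoplasmic reticulum, had 713, 695 and 709 CPM in *yki(RNAi)* tails and 994, 957 and 892 CPM in *control(RNAi)* tails, and 318, 347 and 330 CPM against 457, 533 and 495 CPM at 24 hpa. It fell by 1.94 (SE 0.09) on the log2 scale between 6 and 24 hpa in *yki(RNAi)* tails and by 1.55 (SE 0.09) in *control(RNAi)* tails, a difference of -0.39 (SE 0.12, adjusted p = 0.78). *HSPA4L*, of the Hsp110 family, had a 12 to 24 hpa difference of -0.50 (SE 0.13, adjusted p = 0.19 in edgeR). The remaining lists, 5 genes of BMP and activin signalling, 3 *ndk* genes, 2 of Notch signalling, 7 early response factors, 2 of cell death and DNA damage, 2 muscle, 1 neuron and 3 gut markers, had 0 calls by edgeR in the 3 differences. Their 6 to 12 hpa medians ran from -0.27 for Notch signalling to 0.40 for the *ndk* genes. The 3 gut markers had median differences of 0.04 and 0.02 for the 2 steps. In *yki(RNAi)* tails the neuronal factor *COE* stood at 14.5 to 19.3 CPM, against 10.1 to 13.2 CPM in *control(RNAi)* tails, and its differences were 0.10 (SE 0.15) and -0.12 (SE 0.15).

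All transcripts together were then used to place the libraries along the change from 6 to 24 hpa. This is a description without a test, since 3 against 3 libraries cannot give an exact permutation p under 0.1. A difference between the groups that lies along this change also moves a library, so a position is not a measure of time. The line joining the mean log2 CPM of the 6 hpa and the 24 hpa tails of one RNAi was set to 0 and 1, and libraries of the other RNAi were projected on it. On the axis of *control(RNAi)* tails, *yki(RNAi)* replicates A, B and C stood at 0.18, 0.16 and 0.36 at 6 hpa, at 0.63, 0.79 and 0.80 at 12 hpa and at 1.04, 0.91 and 0.98 at 24 hpa. On the axis of *yki(RNAi)* tails, *control(RNAi)* replicates stood at 0.11, 0.11 and -0.16 at 6 hpa, at 0.18, 0.27 and 0.24 at 12 hpa and at 0.96, 0.83 and 0.65 at 24 hpa. At 12 hpa, *yki(RNAi)* tails stood at 68.5% of the distance between their own 6 and 24 hpa means along the *control(RNAi)* axis, and *control(RNAi)* tails at 26.7% of theirs along the *yki(RNAi)* axis. Whether the groups differ in pace was not tested. With transcripts of at least 1 CPM only, these shares were 65.1% and 27.0%. When the 12 hpa libraries were placed on the axis of their own RNAi, a step added after the data were seen, *yki(RNAi)* tails stood at 0.51 to 0.65 and *control(RNAi)* tails at 0.30 to 0.39. The position is a sum over all transcripts, in which the falling epidermal progenitors and chaperones take part, and their share in it was not tested. Time after irradiation also advances along the axis, and its part in the position cannot be told apart.

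**Figure D5:**
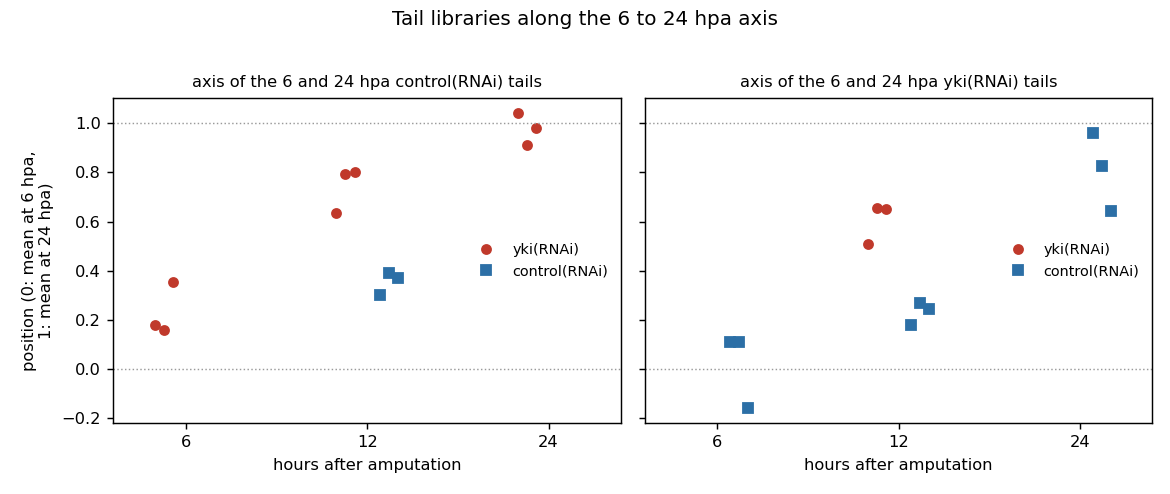
Position of each tail library along the line from the mean of the 6 hpa tails (0, dotted) to the mean of the 24 hpa tails (1, dotted) of *control(RNAi)* (left) or *yki(RNAi)* (right), against hours after amputation; circles are *yki(RNAi)* and squares *control(RNAi)* libraries, and the 6 and 24 hpa libraries that define an axis are not drawn on it. At 12 hpa *yki(RNAi)* libraries lie at 0.63 to 0.80 on the *control(RNAi)* axis, and *control(RNAi)* libraries at 0.18 to 0.27 on the *yki(RNAi)* axis.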

How the data were processed

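RNA of 18 tail libraries was measured by poly(A) sequencing (TruSeq, single-end reads). Bowtie2 2.2.4 was the authors' aligner, with SmedASXL as the transcriptome, and the deposited values are unnormalized counts of reads per transcript, given for 2 lanes. What assigned the reads is not given in the sources used here. Deposited tables of the authors' pair-wise DESeq2 comparisons (log2 fold changes and p-values) were not used, nor was 1 column that matches no single sample. Lanes were summed, and the row without a transcript, 6.31% to 7.49% of a library's counts, was left out. Of 82669 transcripts, 32438 passed filterByExpr (min.count 10, min.total.count 15).

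One edgeR 4.0.16 fit (R 4.3.3) with TMM, 6 group means and no fold minimum gave all contrasts. The same steps were run on simulated counts with known differences. Those counts held no libraries that stand apart and no effect of the replicate letter, so they cannot show how the fit handles either. The common biological coefficient of variation was 10.1%. Log2 CPM for spreads and positions used a prior count of 2. An SE is the log2 difference divided by the square root of F. Depth limits mainly transcripts under about 1 CPM. Totals of 17.8 M to 23.6 M counts cover counting error only.

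Alternatives were DESeq2 1.42.0, its size factors, no filter, a fold minimum, all 24 libraries, 12 libraries, a replicate term and leaving out libraries. Transcripts named are, per difference, the called ones of at least 1 CPM whose 9 *yki(RNAi)* and 9 *control(RNAi)* pairwise differences do not overlap (up to 8 named and 2 unnamed each way), up to 4 members of each list by the smallest joint p, and those the study names. Other *prog* transcripts in a plot and *Post-2d* belong to the lists. The members and lists were chosen with earlier results of these data known. Lists came from the study's supplementary tables or from names in the count table. Members not tested for low counts were *Post1*, a *klf* (SmedASXL_002500), *bcl2-2*, *CyclinB2*, *Cintillo*, *ovo*, *CAPN9* and 2 unnamed wound genes.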

Additional observations from a re-analysis of the deposited data

Results flagged for a closer look

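Each of these results came up because the change over time differed between *yki(RNAi)* and *control(RNAi)* tails by a test of the difference itself. For 12 to 24 hpa the log2 differences, *yki(RNAi)* minus *control(RNAi)*, were 1.63 for *PHYHD1*, 1.57 for SmedASXL_077522, 1.40 for *notum*, -1.02 for SmedASXL_004807 and -1.49 for SmedASXL_009015. For 6 to 24 hpa they were 1.48 for *PHYHD1*, -1.08 for SmedASXL_010649 and -1.92 for SmedASXL_062440. The *yki(RNAi)* effect on *notum* at 12 hpa, set against its mean at 6 and 24 hpa, differed by -1.41. Groups of 3 libraries were too small for a check of single values far from the others.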

How the results depend on the processing

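Counts of called transcripts, in the order 6 to 12 hpa, 12 to 24 hpa, 6 to 24 hpa, 12 hpa against the mean of 6 and 24 hpa, and the joint test, were 0, 5, 3, 1 and 2. A small fold minimum or DESeq2 size factors left all 5 counts as they were. They were 16, 256, 20, 242 and 124 with no filter on low counts, 2, 77, 13, 59 and 69 by DESeq2, and 0, 1, 1, 1 and 0 with all 24 libraries in 1 fit, where the transcript called for 12 hpa against the mean of 6 and 24 hpa was *ston* and not *notum*, and neither *PHYHD1* nor *notum* was called in any difference. With only the 12 libraries of the 2 times compared, the first 3 counts were 3, 16 and 0, and without *yki(RNAi)* 6 and 24 hpa replicate B together the counts for 12 to 24 and 6 to 24 hpa were 1 (*PHYHD1*) and 1 (none of the 3). Leaving out 1 library gave 0 to 7, 1 to 38, 0 to 6, 1 to 140 and 1 to 22. For 6 to 12 hpa the 7 came without *control(RNAi)* 6 hpa replicate C, and 2 without *yki(RNAi)* 12 hpa replicate A or *control(RNAi)* 24 hpa replicate C. For 6 to 24 hpa the 0 came without *yki(RNAi)* 6 hpa replicate C or *control(RNAi)* 24 hpa replicate A, the 6 without *control(RNAi)* 24 hpa replicate B, and 1 without *control(RNAi)* 6 hpa replicate C, any *control(RNAi)* 12 hpa replicate, *yki(RNAi)* 12 hpa replicate A or B, or *yki(RNAi)* 24 hpa replicate B. For 12 hpa against the mean of 6 and 24 hpa, 140 came without *control(RNAi)* 6 hpa replicate C and 90 without *control(RNAi)* 24 hpa replicate C, and 2 to 5 without *yki(RNAi)* 6 hpa replicate C, 12 hpa replicate A or C, or 24 hpa replicate C. For the joint test the 22 came without *control(RNAi)* 24 hpa replicate C, and 12 without *control(RNAi)* 6 hpa replicate C, 4 to 8 without *yki(RNAi)* 6 hpa replicate A or C, *yki(RNAi)* 12 hpa replicate A, *yki(RNAi)* 24 hpa replicate C, *control(RNAi)* 6 hpa replicate B or *control(RNAi)* 24 hpa replicate B, and 1 without *control(RNAi)* 12 hpa replicate A or B or *yki(RNAi)* 12 hpa replicate B. The cause was not tested.

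Libraries of the same replicate letter were not treated as pairs, since not every correlation between them exceeded 0.1: 21 of 45 same-lettered correlations between groups did (median 0.098), against 23 of 90 different-lettered ones (median -0.038), and 13 of 18 libraries correlated best with their own letter, a hint from the data and not the design. That rule is not a test of pairing. Whether same-lettered libraries share an effect was not tested, and the main fit holds no term for it. With the letter as a block the counts were 0, 5, 1, 1 and 4, and for 6 to 24 hpa *PHYHD1* was called while SmedASXL_010649 and SmedASXL_062440 were not. The mean position of *yki(RNAi)* tails at 24 hpa on the *control(RNAi)* axis was 0.98, and 1.05 with transcripts of at least 1 CPM.

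For single transcripts, 219 differences were recomputed into 5694 values. Of these, 5398 kept direction and side of the threshold, 85 lost a call, 54 gained one, and 157 changed sign without being called, in 46 differences of at most 0.55. Only the 8 called differences could lose a call, each over 26 alternatives. A call was kept in as few as 8 of the 26 (SmedASXL_062440) and as many as 25 (*PHYHD1*, 12 to 24 hpa). No called difference changed sign.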
